A study of Mus musculus with 6 samples.

Results

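Genes of the skeletal muscle contractile apparatus were followed in dissected mouse skin from animals carrying a targeted allele of Hoxc13 and from wild type animals. The set held 45 named genes of the sarcomere, its calcium supply, its energy supply and its regulators, chosen by symbol, of which 41 had a named probe set among the 16331 probe sets measured. Casq1, Myl1, Xirp1 and Xirp2 were not analysed here. The mutant group was 3 skin samples labelled as Hoxc13 knockout with the allele Hoxc13tm1Mrc, and the other group was 3 wild type (WT) skin samples. All 6 came from animals labelled male, on a C57BL/6 background, with 5dpn as the age in the titles. The zygosity of the mutants and the body site and depth of the dissection are not given in the sources used here. Values are log2 RMA values of Affymetrix arrays, so a difference of 1 is a factor of 2 in signal.

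Skeletal muscle fibres contract when calcium released from the sarcoplasmic reticulum binds troponin on the actin filament and lets myosin heads pull. Fibres differ by the isoforms they carry: slow fibres use the Myh7 myosin with their own troponins and light chains, fast fibres use Myh2, Myh1 or Myh4, and growing fibres pass through the embryonic myosin Myh3 and the neonatal myosin Myh8. Mouse skin lies on a thin sheet of skeletal muscle, the panniculus carnosus, which is commonly removed in part with the skin. In such bulk samples, fewer muscle cells and less muscle RNA per cell cannot be told apart.

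Hoxc13 itself read 8.95, 8.75 and 9.74 in mutant replicates 1, 2 and 3, against 9.63, 9.81 and 9.83 in WT skin, for a difference of -0.61 with an SE of 0.23 and an adjusted p = 0.293 in limma. Mutant replicate 3 thus lay within the WT range. The labels do not say whether this probe set reads the targeted stretch, so it may not check the genotype. Krtap16-3, a hair keratin-associated protein gene, read 5.60, 5.51 and 3.92 in mutant skin and 13.26, 12.70 and 12.81 in WT skin. In this gene mutant replicate 3 thus lay with the other mutants. The gene was named after its values were seen and stands at the extreme of all probe sets, whose lowest difference was -7.91. It therefore cannot check the identity of that array. The correlation of mutant replicate 3 with the other mutant arrays over all probe sets was 0.989 and 0.990, against 0.997 between those. Although all animals were labelled male, the X-inactivation transcript Xist read 11.15 to 11.67 on every array and 5 Y-linked probe sets read 2.98 to 4.89. Mutant replicate 3 decided many calls, so each class below is given with and without it. That array was singled out by what its removal did to the calls. Calls and adjusted p-values without it are therefore description and not further support for a difference. Differences moved by over 1.5 times in 17 muscle genes without mutant replicate 1 and in 17 without WT replicate 3. Without mutant replicate 3 they did so in 8. Adjusted p-values come from limma with Benjamini-Hochberg adjustment over all probe sets, and a gene was called at an adjusted p under 0.05. The sources do not say more of the samples than that they are independent, so the p-values measure the spread between these arrays.

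The tissue check held for skeletal muscle. The markers Ckm, Acta1, Ttn, Neb, Myh1 and Tnnt3 each read above the array median of 7.405 on all arrays. Ryr1 and Myh4 read below that median on some. The heart myosin gene Myh6 read 3.37 to 3.46 in mutant skin and 3.32 to 3.37 in WT skin, below the lower quartile of 5.485 on every array. Myh6 does not stand for its list, as only 4 of 9 heart muscle genes had a mean below the lower quartile of mean level. The highest of them, Actc1, had a mean of 9.583 in mutant skin and 9.585 in WT skin.

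Of the 41 muscle genes, 3 were called and 38 did not pass the test. The 3 called members were Myh2, Ankrd2 and Lmod2, all higher in mutant skin, and 0 were called lower. Over all probe sets 2.08% were called, 0.478% higher and 1.6% lower. At an unadjusted p under 0.05, 20 members were higher and 0 lower, where 8.44% of all probe sets were higher and 5.94% lower. These shares are the background for every later unadjusted count of this test with all arrays and no covariate. The mean over the 41 members was 9.71, 9.32 and 8.66 in mutant skin and 8.45, 8.96 and 8.11 in WT skin, so the groups overlapped. The difference was above 0 for 38 of 41 members, with a median of 0.80, against 57.7% and a median of 0.02 over all probe sets. The 3 exceptions were Myh3, Tnni1 and Pvalb. All 3 mutant values lay above all 3 WT values in 9 members, namely Myh1, Myh2, Myh7, Actn2, Myl3, Tcap, Ankrd2, Lmod2 and Trim63, where 12.5% of all probe sets did so. The margin was very narrow in Trim63, with 7.494 in mutant replicate 3 against 7.49 in WT replicate 1. In Myh7, a dim gene, it was 4.444 in mutant replicate 3 against 4.364 in WT replicate 2. Without mutant replicate 3 the test called 23 members higher and 0 lower, with a median of 1.02. It then called 7.95% of all probe sets higher and 6.23% lower, the background for every later count of calls without that array. The call held for 1 member, Ankrd2, without mutant replicate 1 or WT replicate 1. It held for 2 members without mutant replicate 2, WT replicate 2 or WT replicate 3. At an unadjusted limma p under 0.05, 7 and 10 members were higher without mutant replicates 1 and 2, against 36 without mutant replicate 3. Without WT replicates 1, 2 and 3 the counts were 8, 29 and 6. Only without mutant replicate 2 was 1 member lower. Shares over all probe sets for these unadjusted counts are not given here.

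**Figure D1:**
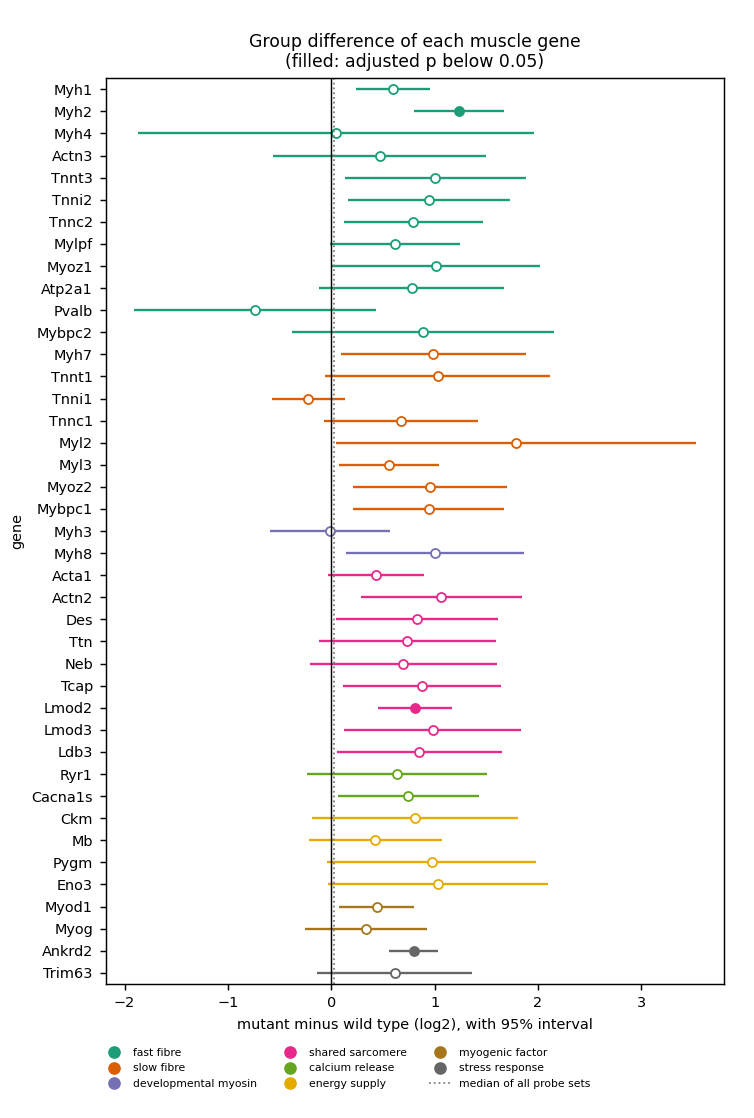
Mutant minus wild type difference (log2, horizontal axis) of each measured muscle gene (rows, coloured by class) with its 95% interval from the limma fit of 3 mutant and 3 wild type arrays. The dotted line is the median of all probe sets, and filled points passed at an adjusted p under 0.05. Most points lie to the right of 0 with intervals that are wide, and those of Myh2, Lmod2 and Ankrd2 are filled.

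Myh2, the myosin heavy chain of fast oxidative (type IIa) fibres, read 8.82, 8.83 and 8.78 in mutant replicates 1, 2 and 3, against 7.78, 7.85 and 7.09 in WT skin. The mutant values were nearly equal, and all lay above every WT value. The difference was 1.23 (SE 0.19, adjusted p = 0.0195), or 2.35-fold. The call was lost without mutant replicate 1 or 2 or WT replicate 1, with differences of 0.99 to 1.37 over the arrays left out in turn.

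Ankrd2, an ankyrin repeat protein that is induced by stretch in mouse muscle, read 7.60, 7.54 and 7.41 in mutant skin and 6.78, 6.85 and 6.54 in WT skin. The groups did not overlap, and the gap between them was wider than the spread within either. The difference was 0.80 (SE 0.10, adjusted p = 0.0088). It passed whichever single array was left out, with differences of 0.70 to 0.86.

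Lmod2, a leiomodin that lengthens actin filaments at their pointed ends and is best known from heart muscle, read 7.65, 7.01 and 7.24 in mutant skin and 6.56, 6.48 and 6.41 in WT skin. The groups did not overlap, and the mutant arrays were the more scattered. The difference of 0.81 (SE 0.15, adjusted p = 0.0457) was near the threshold and was lost without mutant replicate 1 or any WT array (0.64 to 0.96). The per-array mean of 82 other muscle genes was then used as a covariate. With it limma called 0 members, with 3 higher and 2 lower at an unadjusted p under 0.05. The share over all probe sets for these unadjusted counts is not given here. That covariate itself differed by 0.42 between the groups, so the fit cannot fully part muscle amount from genotype. Over all probe sets that fit called 0.827%, of which 0.0551% were higher and 0.772% lower. The differences were 0.98 for Myh2, 0.62 for Ankrd2 and 0.63 for Lmod2, with limma adjusted p = 0.151, 0.0533 and 0.355.

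The promoters of the 3 called genes are shown beside that of Acta1, skeletal muscle actin, because factors that switch on muscle genes bind short motifs in such regions. MyoD family factors bind the E-box CANNTG (often as CAGCTG), serum response factor binds the CArG box, and MEF2 factors bind an AT-rich consensus. Each sequence is the 250 bases before the RefSeq start in GRCm38.p6, with the E-box, CArG box, MEF2 consensus and TATAAA in capitals. Myh2 lies at chr11:67170777-67171026 and Lmod2 at chr6:24597521-24597770, both on the plus strand. Ankrd2 lies at chr19:42035777-42036026 on the plus strand, and Acta1 at chr8:123894776-123895025 on the minus strand.
Myh2: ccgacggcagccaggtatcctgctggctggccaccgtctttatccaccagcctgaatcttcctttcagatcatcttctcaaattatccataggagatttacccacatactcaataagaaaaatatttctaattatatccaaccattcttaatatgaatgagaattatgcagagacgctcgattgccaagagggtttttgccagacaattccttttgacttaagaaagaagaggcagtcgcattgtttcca
Ankrd2: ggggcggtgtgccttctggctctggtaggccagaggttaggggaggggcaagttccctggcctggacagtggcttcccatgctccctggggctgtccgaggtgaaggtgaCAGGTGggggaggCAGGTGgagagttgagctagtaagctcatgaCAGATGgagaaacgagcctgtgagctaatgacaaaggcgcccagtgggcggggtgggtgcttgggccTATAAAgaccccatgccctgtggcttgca
Lmod2: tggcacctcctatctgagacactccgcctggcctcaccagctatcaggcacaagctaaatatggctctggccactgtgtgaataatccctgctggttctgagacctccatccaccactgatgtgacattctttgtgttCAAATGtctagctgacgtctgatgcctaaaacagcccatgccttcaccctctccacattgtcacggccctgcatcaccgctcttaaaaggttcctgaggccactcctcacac
Acta1: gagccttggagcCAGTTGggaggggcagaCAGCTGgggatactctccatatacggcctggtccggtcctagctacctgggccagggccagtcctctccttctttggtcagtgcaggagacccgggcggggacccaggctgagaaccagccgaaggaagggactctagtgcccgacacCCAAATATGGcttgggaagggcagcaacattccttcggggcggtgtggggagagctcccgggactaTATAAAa

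Ankrd2 held 3 E-boxes and a TATAAA, and Lmod2 held 1 E-box. Acta1 held 2 E-boxes, a CArG box and a TATAAA, and Myh2 held none of these motifs in this window. Promoters were matched for 33 of the 41 members, each at the first start listed, and searched on both strands. CANNTG was found in 84.8% of them and in 66.0% of 27025 promoters of the same length. The narrower CAGCTG, which CANNTG includes, was found in 36.4% and in 12.8%. The MEF2 consensus was found in 18.2% against 3.01%, the CArG box in 12.1% against 1.4%, and TATAAA in 24.2% against 13.0%. A match is a match of letters, and binding was not measured.

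The fast myosins had unlike array profiles. Myh1, the fast type IIx myosin, read 12.15, 11.72 and 11.79 in mutant skin and 11.49, 11.37 and 11.03 in WT skin. Its groups did not overlap, but the difference of 0.59 (SE 0.15) did not pass (adjusted p = 0.128). Without mutant replicate 3 it was 0.64 and was called (adjusted p = 0.0403). Myh4, the type IIb myosin of the fastest fibres, read 9.00, 7.34 and 6.50 in mutant skin and 6.72, 9.27 and 6.72 in WT skin. A single array was high in each group, and the difference was 0.05 with a 95% interval of -1.87 to 1.96 (adjusted p = 0.991). Pvalb, parvalbumin, the calcium buffer of fast fibres, shared the high value in WT replicate 2. It read 9.18, 8.37 and 8.10 in mutant skin and 8.54, 10.48 and 8.86 in WT skin, a difference of -0.74 (SE 0.50, adjusted p = 0.548). Actn3, the Z-disc actinin of fast fibres, also peaked in WT replicate 2 at 10.76, against 10.66, 10.22 and 9.66 in mutant skin.

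The fast troponins and the light chain Mylpf shared 1 order over the arrays, with WT replicate 2 between mutant replicates 2 and 3. Tnnt3, the fast troponin T that ties troponin to tropomyosin, read 12.73, 12.21 and 11.42 in mutant skin and 11.16, 11.67 and 10.51 in WT skin (1.01, SE 0.38, adjusted p = 0.278). Tnni2, the inhibitory subunit, differed by 0.95, Tnnc2, the calcium-binding subunit, by 0.79, and Mylpf by 0.62. Atp2a1, the fast calcium pump, Myoz1, a Z-disc protein, and Mybpc2, fast myosin binding protein C, differed by 0.78, 1.01 and 0.89. In each of these genes mutant replicate 3 lay within the WT range, and none passed with all arrays. Without mutant replicate 3, Tnnt3 (1.36), Tnni2 (1.22), Tnnc2 (1.05) and Myoz1 (1.42) were called, with limma adjusted p = 0.0253, 0.0345, 0.0304 and 0.0358. Of the 12 fast members, 1 was called higher with all arrays and 6 without mutant replicate 3, and the median difference with all arrays was 0.79.

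Of the 8 slow fibre genes, 6 read highest among the mutants in mutant replicate 2, as did 4592 of all 16331 probe sets. Myl2, the slow regulatory light chain, read 6.40, 7.27 and 3.89 in mutant skin and 3.82, 4.10 and 4.27 in WT skin. The first 2 mutant arrays stood far above all others, while mutant replicate 3 lay with the WT arrays. Its difference of 1.79 was the largest positive one of all probe sets, yet with an SE of 0.75 it did not pass (adjusted p = 0.335). Myh7, the slow myosin, read 5.14, 6.22 and 4.44 in mutant skin and 4.33, 4.36 and 4.16 in WT skin (0.99, SE 0.38, adjusted p = 0.301). Tnnt1, slow troponin T, read 7.82, 8.19 and 6.13 in mutant skin and 6.29, 6.42 and 6.36 in WT skin (1.03, SE 0.47, adjusted p = 0.372). Without mutant replicate 3 these differences were 2.77, 1.40 and 1.65, with adjusted p = 4.3e-04, 0.0139 and 1.12e-04 in limma. Myl2, Myh7 and the slow light chain Myl3 had mean values below the lower quartile of the arrays, where background makes up much of an array signal.

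The other slow members were not alike. Tnnc1, the slow troponin C, and Myl3 were also highest in mutant replicate 2, at 7.86 and 6.12. Tnni1, the slow inhibitory troponin, read 7.21, 7.62 and 6.98 in mutant skin and 7.49, 7.46 and 7.53 in WT skin, a difference of -0.22 (SE 0.15, adjusted p = 0.551). Myoz2 and Mybpc1, the slow forms of the Z-disc protein and of myosin binding protein C, were highest in mutant replicate 1 (10.30 and 10.77), as most fast members were, and differed by 0.95 and 0.94. In all, 0 of 8 slow members were called in limma and 5 had an unadjusted p under 0.05, with a median difference of 0.95. With mutant replicate 3 left out, 7 of the 8 were called higher, all but Tnni1. Among them were Tnnc1 (1.00), Myl3 (0.72), Myoz2 (1.27) and Mybpc1 (1.22), with limma adjusted p = 0.0315, 0.0401, 0.0153 and 0.0232. Mutant replicate 2 was the highest mutant array for 6 of the 8 slow and 1 of the 12 fast members (4592 of all 16331 probe sets).

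**Figure D2:**
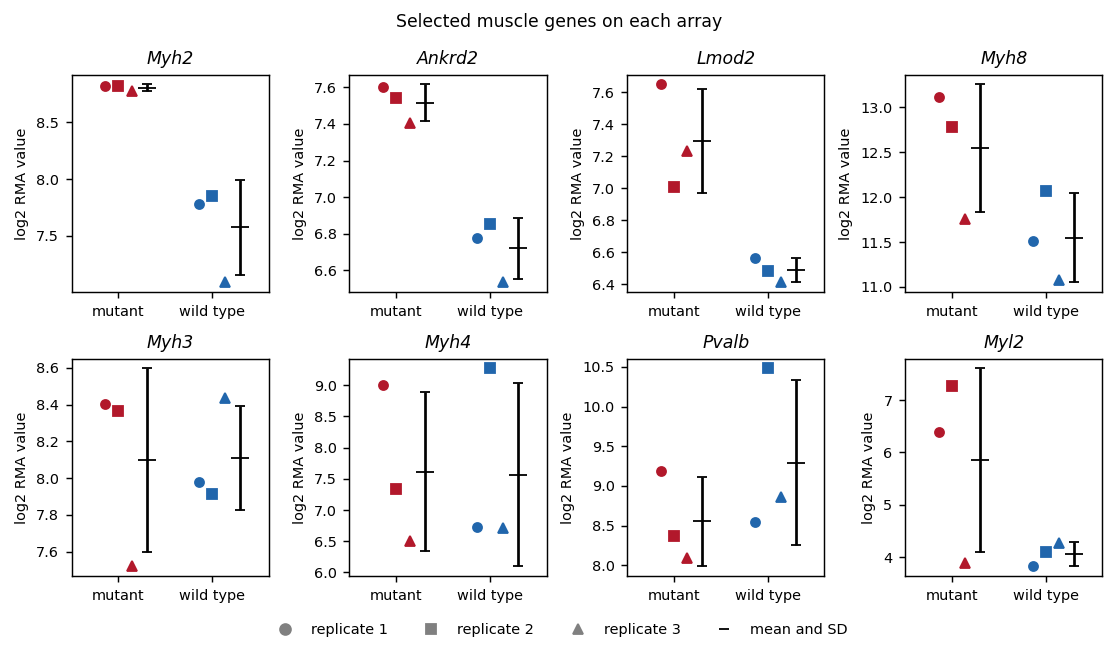
Log2 RMA values (vertical axes, scaled per gene) of 8 muscle genes on each array, with mutant left and wild type right. Symbols give the replicate, and the bar beside each group is its mean with the SD (n = 3). Mutant and wild type values are separate for Myh2, Ankrd2 and Lmod2, and overlap for the other 5.

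The developmental myosins had unlike differences. Myh8, the neonatal myosin, read 13.11, 12.78 and 11.75 in mutant skin and 11.51, 12.07 and 11.07 in WT skin. Mutant replicate 3 fell within the WT range, and the test gave a difference of 1.00 (SE 0.37, adjusted p = 0.275). Without that array it was 1.40 (adjusted p = 0.0119). Myh3, the embryonic myosin, read 8.41, 8.37 and 7.52 in mutant skin and 7.98, 7.91 and 8.44 in WT skin. WT replicate 3 was the highest array and mutant replicate 3 the lowest, and the difference was -0.01 with a 95% interval of -0.59 to 0.57. Both genes lie in 1 cluster on chromosome 11 in the order Myh3, Myh2, Myh1, Myh4 and Myh8, and their sequences are alike, so that probes could read more than 1 of them.

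All 9 genes of sarcomere proteins not tied to a fibre type read higher in mutant replicates 1 and 2 than on any WT array. Of all 16331 probe sets, 4434 did so. Actn2, the Z-disc actinin, read 10.99, 10.27 and 9.93 in mutant skin and 9.50, 9.80 and 8.71 in WT skin, with no overlap (1.06, SE 0.33, adjusted p = 0.201). Acta1 read 14.06, 13.90 and 13.65 in mutant skin and 13.36, 13.87 and 13.09 in WT skin (0.43, SE 0.20, adjusted p = 0.381). The giant scaffold genes Ttn (titin) and Neb (nebulin) differed by 0.73 and 0.70. Des, the intermediate filament desmin, differed by 0.83, Tcap, the titin cap, by 0.88, Ldb3, a Z-disc adaptor, by 0.85 and Lmod3, the skeletal leiomodin, by 0.98. Lmod2 was the 1 called of these 9 with all arrays. Actn2 (1.29), Lmod3 (1.38) and Ldb3 (1.22) were called as well without mutant replicate 3, with limma adjusted p = 0.0348, 0.0129 and 0.0134. The range over the 3 WT arrays was larger than the group difference in 6 of the 9, and in 27 of all 41 members. That held for 11062 of the 16331 probe sets, a similar share.

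Mutant replicate 1 was the highest array and WT replicate 3 the lowest in all 6 calcium release and energy genes. Ryr1, the calcium release channel, read 8.20, 7.13 and 6.99 in mutant skin and 6.73, 7.41 and 6.28 in WT skin (0.64, SE 0.37, adjusted p = 0.481). Cacna1s, the voltage sensor that opens it, differed by 0.75 (adjusted p = 0.307). Ckm, muscle creatine kinase, read 12.67, 11.99 and 11.34 in mutant skin and 11.05, 12.01 and 10.52 in WT skin (0.81, SE 0.43, adjusted p = 0.436). Eno3, muscle enolase, and Pygm, which breaks down glycogen, differed by 1.03 and 0.97, and the oxygen store Mb, myoglobin, by 0.43. With all arrays none of these 6 was called in limma, and 1 (Cacna1s) had an unadjusted p under 0.05. Cacna1s (0.97, adjusted p = 0.0483) and Eno3 (1.43, adjusted p = 0.0461) were called without mutant replicate 3. Without mutant replicate 1 the differences of Ryr1 and Mb were 0.26 and 0.13.

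Both myogenic factors had differences below the median of the set. Myod1, which commits cells to the muscle lineage, read 6.03, 5.85 and 5.50 in mutant skin and 5.26, 5.59 and 5.21 in WT skin (0.44, SE 0.16, adjusted p = 0.257). Myog, myogenin, which drives fusion and differentiation, read 7.38, 7.23 and 6.42 in mutant skin and 6.76, 6.89 and 6.38 in WT skin (0.33, SE 0.25, adjusted p = 0.60). In both, mutant replicate 3 lay within the WT range, and without it the differences were 0.59 and 0.63, with adjusted p = 0.020 and 0.0283. Trim63, the ubiquitin ligase MuRF1 of muscle wasting, read 8.56, 7.50 and 7.49 in mutant skin and 7.49, 7.48 and 6.74 in WT skin (0.61, SE 0.32, adjusted p = 0.433). Its difference was 0.26 without mutant replicate 1.

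**Figure D3:**
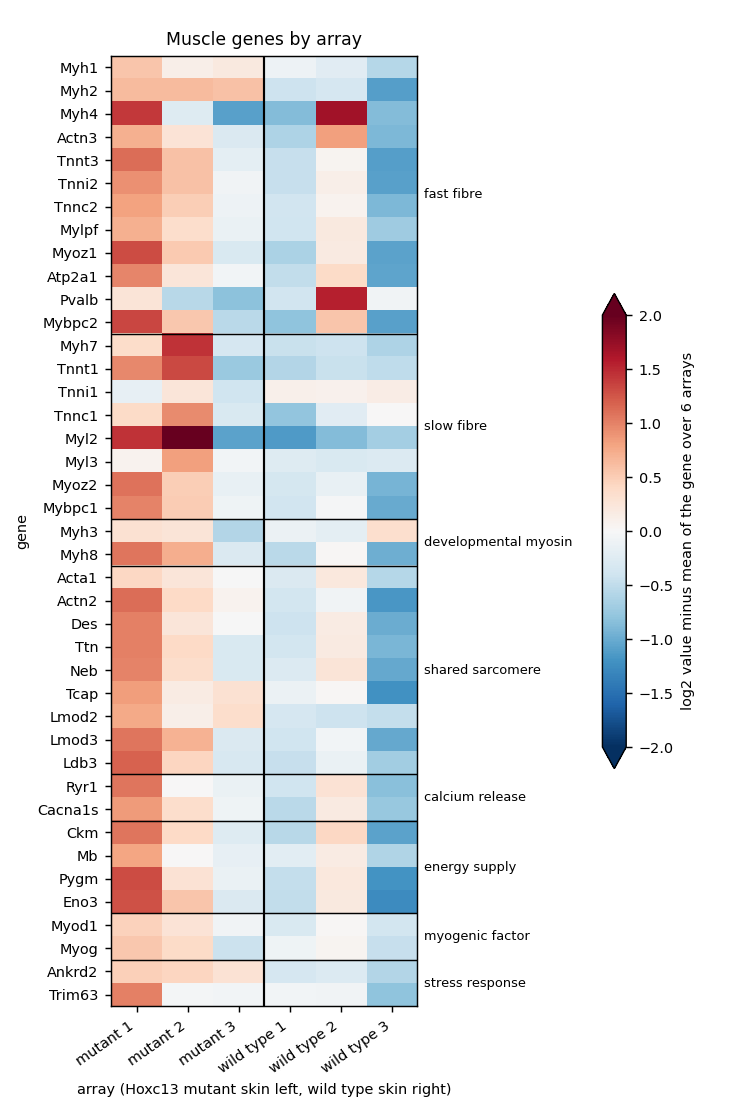
Log2 value of each measured muscle gene (rows, by class) on each array (columns, mutant left of wild type) minus the mean of that gene over the 6 arrays. Mutant replicate 1 is mostly red and wild type replicate 3 mostly blue, while mutant replicate 3 lies between, and the slow genes from Myh7 to Myl3 and the fast genes Myh4 and Pvalb depart from this order.

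A shared array order ran through the set. Mutant replicate 1 had the highest value of all arrays in 30 of 41 members (19.5% of all probe sets), and WT replicate 3 the lowest in 33 (15.7%). Mutant replicate 3 was the lowest mutant array in 38 of 41 members (37.5% of all probe sets), and WT replicate 2 the highest WT array in 33 (33.9%). Mutant replicate 3 lay within the WT range in 27 members, above it in 9 and below it in 5. Of all 16331 probe sets, it lay within that range in 5563, above it in 6518 and below it in 4250. The median member stood 1.35, 0.78 and 0.20 above the WT mean in mutant replicates 1, 2 and 3. The median range over the WT arrays alone was 0.97 among the members, against 0.16 over all probe sets.

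Fibre type was set against muscle amount by averaging, on each array, the deviations of the members of a class from their own means over the 6 arrays. The fast class stood at 0.89, 0.30 and -0.23 in mutant skin and at -0.50, 0.42 and -0.87 in WT skin. The slow class stood at 0.64, 1.01 and -0.39 in mutant skin and at -0.48, -0.29 and -0.48 in WT skin. Fast minus slow was 0.25, -0.71 and 0.16 in mutant skin and -0.02, 0.71 and -0.39 in WT skin, with means of -0.10 ± 0.53 in mutant skin and 0.10 ± 0.56 in WT skin (SD, n = 3 each). The groups overlapped, and the difference of -0.20 was smaller than the SD of either. It was 0.10 without mutant replicate 2 or WT replicate 2, so that its sign rested on single arrays. It was -0.45 without WT replicate 3, -0.04 with dim probe sets left out and -0.56 with the muscle covariate. The shared sarcomere class differed by 0.81 between the groups, the fast class by 0.64, the slow class by 0.84 and the developmental myosins by 0.49.

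Relative to the shared sarcomere class on the same array, the mutant and WT values of 6 members did not overlap. Each gene of that class, Actn2 among them, is part of the mean it is set against. Pvalb stood at -0.67, -0.89 and -0.77 in mutant skin and at -0.05, 1.54 and 0.83 in WT skin. Tnni1 stood at -1.10, -0.10 and -0.35 in mutant skin and at 0.44, 0.06 and 1.04 in WT skin. Mb and Myod1 were also lower on all mutant arrays in this measure, by 0.38 and 0.37, and Actn2 and Mybpc1 were higher, by 0.25 and 0.13. These 4 lower and 2 higher members compare with 23.5% and 0.0367% of all probe sets. Genes that do not follow muscle are lower in mutant skin by construction, and the measure takes each gene to move one for one with the class. Fitted with the mean of the other muscle genes as a covariate, which gives each gene its own slope, Pvalb differed by -1.62 (adjusted p = 0.322) and Tnni1 by -0.29 (adjusted p = 0.84). The median over the 41 members was 0.10 in that fit. Myh2 stood at -0.30, 0.30 and 0.64 in mutant skin relative to the shared class, and at -0.07, -0.36 and -0.21 in WT skin, so its groups overlapped.

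**Figure D4:**
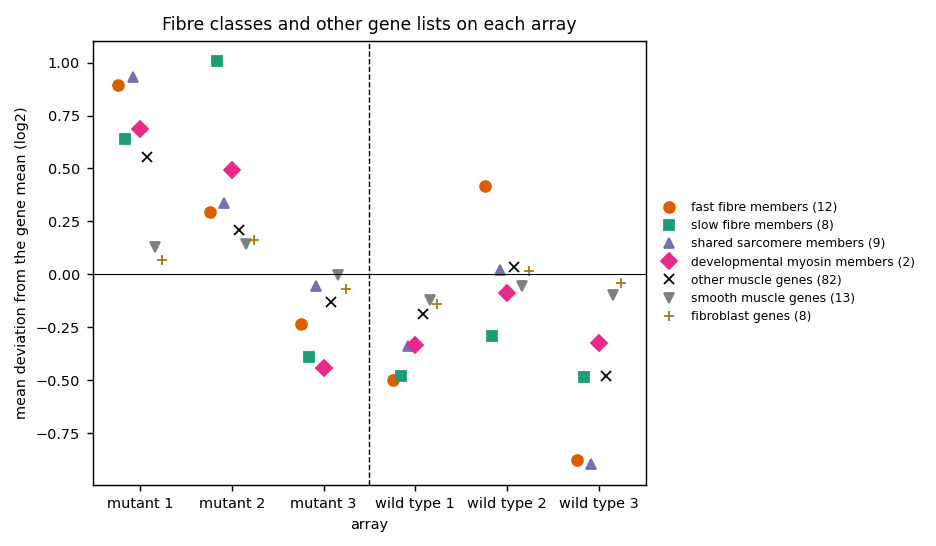
Mean deviation from the gene mean (log2, vertical axis) of 4 classes of muscle members, of 82 other muscle genes, and of smooth muscle and fibroblast genes on each array (horizontal axis, mutant left of the dashed line). The fast and slow classes are furthest apart in mutant replicate 2 and wild type replicate 2, in opposite directions, and the smooth muscle and fibroblast genes stay between -0.14 and 0.16.

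Muscle genes outside the set also read higher in mutant replicate 1 (the highest array in 64 of 82), with smaller differences. Of 82 measured genes in 6 lists, 0 were called by limma, and at an unadjusted p under 0.05, 27 were higher and 2 lower. Without variance moderation 0 were called as well, with 5 at an unadjusted p under 0.05. The share over all probe sets for that last count is not given here. The median difference of the 82 was 0.38, and 69 were above 0. By list it was 0.59 for energy supply, 0.50 for sarcomere, 0.40 for quality control and 0.39 for calcium and membrane genes. It was 0.09 for neuromuscular junction genes and 0.04 for regulators, and 12 of the 82 had means below the lower quartile. Over the 82, leaving out mutant replicate 1 gave a median of 0.22, and leaving out mutant replicate 3 gave 0.57. Csrp3, a Z-disc protein of stretch sensing, read 9.73, 9.27 and 8.95 in mutant skin and 8.55, 8.21 and 7.99 in WT skin, with no overlap (1.07, SE 0.21, adjusted p = 0.057). In the energy list the mitochondrial creatine kinase Ckmt2 had the smallest p, with a difference of 1.28 (adjusted p = 0.217). In the neuromuscular junction list it was the acetylcholine receptor subunit Chrna1 (0.78, adjusted p = 0.22). In the calcium and membrane list it was Cacng1, a calcium channel subunit (0.69, adjusted p = 0.222), and among the regulators Myf6, a MyoD family factor (0.84, adjusted p = 0.329). Among quality control genes it was the small heat shock protein Hspb8, at -0.32 (adjusted p = 0.0602). Chrna1 and Myf6 do not stand for their lists, as 3 of 9 junction genes and 5 of 12 regulators had differences below 0. Without mutant replicate 3, 32 of the 82 were called higher and 1 lower.

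Markers of other cell types were measured beside the muscle genes, and their part in the muscle differences was not tested. The mean of 13 smooth muscle genes other than Des was 8.08 to 8.23 in mutant skin and 7.96 to 8.03 in WT skin, a difference of 0.18 against 0.72 for the 41 members. Of the 14 smooth muscle genes, Des included, 0 were called by limma and 5 were higher and 0 lower at an unadjusted p under 0.05, with Tagln at 0.39 (adjusted p = 0.0527). The mean of 8 fibroblast genes was 12.38 to 12.62 in mutant skin and 12.32 to 12.47 in WT skin. For 9 white fat genes it was 9.99 to 10.48 in mutant skin and 10.06 to 10.27 in WT skin, and for 7 tendon and fascia genes 7.13 to 7.40 in mutant skin and 7.22 to 7.32 in WT skin. The mean of 8 endothelial genes was 7.44 to 7.68 in mutant skin and 7.44 to 7.70 in WT skin. That of 9 heart muscle genes was 6.15 to 6.38 in mutant skin and 6.17 to 6.29 in WT skin. Actc1, Tnnt2 and Myl4 of the heart muscle list were also among the 82 other muscle genes, so these lists are not independent. The mean of 4 nerve genes was 8.12 to 8.15 in mutant skin and 7.74 to 8.03 in WT skin, with differences of 0.78 for Mbp, 0.46 for Pmp22, 0.00 for Sox10 and -0.33 for S100b. Brown fat (6 genes), keratinocyte (8) and blood (5) lists differed by 0.05, 0.13 and -0.05. The brown fat mean joined opposite differences, from -1.14 for Elovl3 to 0.99 for Cpt1b, with 3 of the 6 genes above 0. With all arrays limma called 0 genes in all these lists. At an unadjusted p under 0.05 there were 3 higher fibroblast genes, 2 higher and 1 lower tendon genes, 2 higher and 1 lower nerve genes, 2 higher and 1 lower brown fat genes, 1 lower white fat gene, 1 lower heart muscle gene, and 0 in the endothelial, keratinocyte and blood lists. These lists held calls too without mutant replicate 3. Called were 4 higher smooth muscle genes, 3 higher white fat genes, 3 higher and 2 lower brown fat genes, 2 higher fibroblast genes, 2 higher and 1 lower nerve genes, 1 higher heart muscle gene, 1 lower tendon gene and 1 lower blood gene. The fat hormone gene Retn was among them, at 1.06 (limma adjusted p = 0.00274).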

How the data were processed

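Total RNA of dissected skin (RNAlater, RNeasy columns with DNase) was labelled by oligo(dT)-primed one-cycle amplification, per the labels' protocols, a scheme biased to 3′ ends. The values the authors deposited are on the log2 scale from RMA (submitters' processing notes, version not given in the sources used here). The method gives all arrays one distribution, so changes in total RNA are not seen, and no detection calls were used. The number of arrays limits the precision.

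Of 16395 probe sets, 64 controls were left out and 16331 tested, of which 15644 had 1 gene symbol in the platform annotation and 687 stay unnamed. Groups and replicate numbers came from the titles. limma 3.58.1 (R 4.3.3) fitted mutant minus wild type (lmFit, eBayes, two-sided), with Benjamini-Hochberg adjustment over all probe sets, and was tested on simulated data. The labels do not say what a replicate number shares, so no pairing was used. Same-numbered arrays did not deviate together over all probe sets (correlations of 0.036, -0.119 and -0.0873). Over the 41 members alone the correlations were -0.353, -0.458 and -0.0954. Such a correlation over genes does not see a shift shared by all members. Replicate 3 was the lowest mutant array in 38 of the 41 members and the lowest WT array in 34.

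Members, classes and lists were chosen with earlier results of these data known. Every measured member could be named. Of the other lists, called genes were named, or else the gene of smallest p in each muscle list. Beyond that rule, Tagln, Retn, Elovl3, Cpt1b, Actc1, the nerve genes and Myh6 were named after their values were seen. So were Krtap16-3 and the members set against the shared class. Tnnt2 and Myl4 were named for being in both the heart muscle and the sarcomere list. Promoters came from RefSeq (GRCm38.p6). Alternatives were a filter on dim probe sets, 2 renormalisations, a trended robust prior, array weights, a replicate block, no moderation, a muscle covariate and each array left out. Figures used matplotlib 3.10.9 in Python 3.11.15.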

Additional observations from a re-analysis of the deposited data

How the results depend on the processing

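Leaving out probe sets below the lower quartile of mean level called the same 3 members (Myh2, Ankrd2 and Lmod2). A trended robust prior did so too. The same 3 were called with the values quantile normalised again or centred on array medians. These 2 settings could hardly test the calls. The deposited values already shared one distribution, with a median of 7.405 on every array, so centring could not change a call. With the trended prior, 1 other muscle gene was called. Array weights, which gave mutant replicate 3 a weight of 0.234, raised the calls to 21 members, 28 other muscle genes and 1880 probe sets, and put Myh3 at 0.20. With the replicate block, Lmod2 was lost (adjusted p = 0.0524), leaving 2 members, with 3 other muscle genes and 197 probe sets called. The block changed no other call among the members. At an unadjusted limma p under 0.05 it gave 32 members higher and 0 lower, against 20 and 0 without it. The share over all probe sets for that count is not given here. Without variance moderation limma's plain fit called 0 members (4 higher and 0 lower at an unadjusted p under 0.05) and 84 probe sets. Shares over all probe sets for the unadjusted counts of this fit and the next are not given here. With the muscle covariate limma called 0 members (3 higher and 2 lower at an unadjusted p under 0.05) and 135 probe sets, and the medians were 0.10 for the members and 0.0081 for the other muscle genes. In that fit 13 members changed sign without a call, namely Myh4 (-1.66), Actn3 (-0.41), Mybpc2 (-0.31), Myog (-0.20), Neb (-0.19), Mb (-0.18), Ryr1 (-0.17), Ckm (-0.14), Ttn (-0.11), Atp2a1 (-0.045), Trim63 (-0.033), Eno3 (-0.015) and Pygm (-0.0069). The cause of these moves was not tested. Leaving out each array in turn gave 1 to 23 members called, 0 to 33 other muscle genes and 151 to 2316 probe sets, all at the high end without mutant replicate 3. The median difference was then 0.53 to 1.02 for the members and 0.22 to 0.57 for the other muscle genes, and fast minus slow was -0.45 to 0.10. The difference moved by over 1.5 times for 26 of the 41 members under at least 1 of these fits. Over these fits Myh4 ranged from -0.65 to 0.89 and Myh3 from -0.17 to 0.28, and no other member changed sign. The 3 arrays a group limit the precision, and the signal of Myh7, Myl2 and Myl3 was not tested against background.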
